A study of Mus musculus with 4 samples.

Results

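The regions described here are stretches of the mouse autosomes that were tiled on a DNA methylation array with long probes. Autosomal probes were joined into regions where neighbours lay at most 1000 bp apart, and a region was taken as long where it held at least 3 probes with a median probe length of 55 bp or more. By this rule, 2430 of the 21019 autosomal regions were long, with 18006 of the 167117 autosomal probes. They were set against the 9979 regions with a median probe length of 45 bp, the shortest on the array, with 81446 probes. No measured value enters this rule, but the rule was chosen with earlier results of these data known.

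Arrays of this kind adjust the length of a probe so that all probes melt at similar temperatures, and sequence rich in A and T is therefore given longer probes. Probe length stands in here for base composition, which was not itself measured because no sequence of build mm9 was used, so the label AT-rich could not be checked and the regions are called long regions. Methylated DNA immunoprecipitation (MeDIP) uses an antibody against methylated cytosine, which in most mammalian cells lies in CpG dinucleotides. DNA with few CpGs offers the antibody few binding sites even where they are methylated, and sequence rich in A and T is commonly poor in CpGs.

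The line used, 3T3-L1, consists of mouse preadipocytes of embryonic fibroblast origin that turn into adipocytes when induced. Each of the 4 groups was 1 array: cells stably carrying the shRNA8 construct against slincRAD, a long noncoding RNA, at day +2 and at day -2, and wild type control cells at day +2 and at day -2. From day 0, at confluence, the day +2 cells received insulin at 167 nM, dexamethasone at 1 µM and 3-isobutyl-1-methylxanthine at 0.5 mM, and the day -2 cells were harvested before this induction. The labels name no control hairpin, so the shRNA8 line and the control line differ both in the hairpin and in the carrying of a construct, and the level of slincRAD was not measured in these data. The input label of the shRNA8 day +2 sample gives day +2 and also says that the cells were taken before adipogenesis, and the sample was taken as day +2.

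On each array Cy5 marked the DNA pulled down by the antibody (IP) and Cy3 the input DNA, which had seen no antibody. The signals are processed intensities in arbitrary units, and the ratio is log2 of IP over input. All 4 arrays lay on 1 slide, with the shRNA8 samples in the first pair of positions and the control samples in the next, so that line and position cannot be told apart. With 1 array per group, a difference between lines or days has no replicate check and no p-value. Precision is limited by how few arrays there are. For spots that were not above background, the deposited signal is a substitute value near the floor of the channel, and a spot with substitutes in both channels had a median ratio of -1.99 in shRNA8 cells at day +2, -2.24 in shRNA8 cells at day -2, -2.34 in control cells at day +2 and -2.28 in control cells at day -2.

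Long regions were of the same build as 45 bp regions apart from their probes. A long region had a median of 8 probes, a width of 1632 bp and a gap of 155 bp between probes, against 8 probes, 1663 bp and 162 bp in 45 bp regions. Of their probes, 48.7% were 60 bp long and 10.2% were 45 bp long, against 4.28% and 71.7% in 45 bp regions. Among the long regions, 929 had a median of 60 bp and 1501 a median from 55 bp to just under 60 bp.

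Long regions lay together along the chromosomes. The next region along the chromosome was also long for 50.5% of the long regions, against 3.41% of the 45 bp regions and 11.6% of all regions. The share of long regions was highest on chromosome 2, with 344 of 1855 regions or 18.5%, and on chromosome 7, with 369 of 2004 or 18.4%. It was lowest on chromosome 15, with 26 of 834 or 3.12%. When the autosomes were divided into windows of 2 Mb, 645 of the 1192 windows with a region held a long one. The 3 windows with most of them held 230 long regions, 9.47% of the total: 93 of 98 regions at 86 to 88 Mb of chromosome 2, 72 of 82 at 88 to 90 Mb of the same chromosome, and 65 of 88 at 38 to 40 Mb of chromosome 9.

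**Figure D1:**
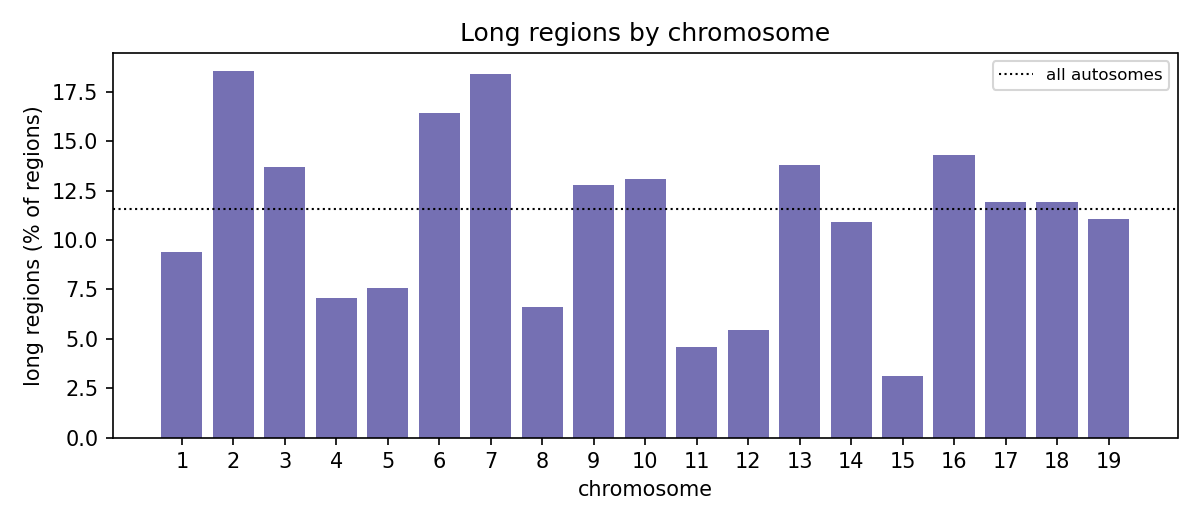
Share of the regions of each autosome that were long (vertical axis, percent), with the share over all autosomes as a dotted line. Chromosomes 2 and 7 stand highest at 18.5% and 18.4%, and chromosome 15 lowest at 3.12%.

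Long regions were detected less often in both channels and on every array. In the IP channel, 66.0% of their probes were above background in shRNA8 cells at day +2, 67.1% in shRNA8 cells at day -2, 66.3% in control cells at day +2 and 66.0% in control cells at day -2. The 45 bp regions had 94.0%, 94.3%, 94.1% and 93.9% of probes above background in the same order of arrays. The IP shares of the 4 arrays thus lay within a narrow range in each class, and the classes did not overlap. The difference averaged -27.7 ± 0.39 percentage points (SD, n = 4 arrays).

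The input channel had a lower share of probes above background in both classes and was less even between arrays. In long regions 65.4% of probes were above background in the input of shRNA8 cells at day +2, 54.49% in shRNA8 cells at day -2, 54.3% in control cells at day +2 and 52.9% in control cells at day -2. In 45 bp regions the shares were 81.3%, 79.2%, 75.3% and 74.5% in the same order. The difference averaged -20.8 ± 3.62 percentage points (SD, n = 4 arrays). The shRNA8 day +2 array stood apart in the long regions, where its input share exceeded that of the other 3 arrays on 19 of 19 autosomes.

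The share above background fell off step by step with probe length, without a break at 55 bp. In the plot of probes above background by region class, the 4 arrays lie on each other for IP and the shRNA8 day +2 array lies above the others for input. The 338 regions just inside the limit, at a median of 55 bp or the next step up, had 76.6% of probes above background in the IP of shRNA8 cells at day +2, and the 354 regions just outside it, at 54 bp or the next step up, had 77.9%. Their median ratios on that array were -0.55 inside and -0.48 outside.

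**Figure D2:**
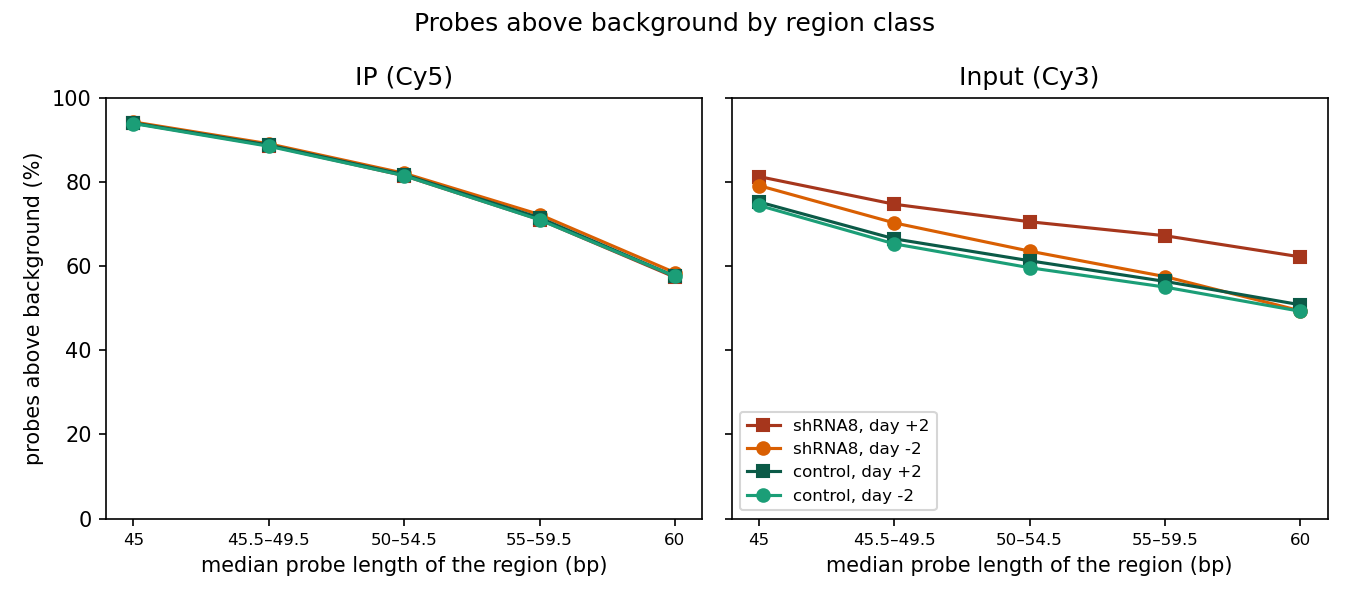
Share of probes above background (vertical axes, percent) in the IP and the input channel, by the median probe length of the region in bp (horizontal axes), with 1 line per array. In the IP channel the 4 arrays overlap at every class, and in the input channel the shRNA8 day +2 array is the highest at every class.

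Few long regions were bright throughout. Every probe was above background in the IP of all 4 arrays in 103 long regions (4.24%), against 5716 of the 45 bp regions (57.3%). In the input this held for 18 long regions (0.741%), against 417 of the 45 bp regions (4.18%). Both channels were above background at 49.7% of long-region probes in shRNA8 cells at day +2, 44.0% in shRNA8 cells at day -2, 42.7% in control cells at day +2 and 41.4% in control cells at day -2. The 45 bp regions had 79.0%, 77.3%, 73.5% and 72.7% in the same order. Input alone was above background at 15.6%, 10.5%, 11.6% and 11.5% of long-region probes, against 2.30%, 1.83%, 1.75% and 1.75% of the probes in 45 bp regions.

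The signals themselves differed more in the IP than in the input. The median IP signal of a long region was 49.3 in shRNA8 cells at day +2, 49.1 in shRNA8 cells at day -2, 45.2 in control cells at day +2 and 46.2 in control cells at day -2, against 498, 483, 449 and 445 in 45 bp regions. The median input signal was 96.9, 76.6, 78.7 and 80.1 in long regions, against 319, 305, 259 and 262 in 45 bp regions, in the same order of arrays. On the log2 scale, long regions minus 45 bp regions gave -3.30 ± 0.03 for IP and -1.79 ± 0.14 for input (SD, n = 4 arrays).

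The ratio of IP to input was lower in long regions on every array. The median region ratio was -1.26 in shRNA8 cells at day +2, -1.17 in shRNA8 cells at day -2, -1.28 in control cells at day +2 and -1.28 in control cells at day -2. In 45 bp regions it was 0.31, 0.31, 0.35 and 0.34. The difference averaged -1.57 ± 0.07 on the log2 scale (SD, n = 4 arrays), and on the separate arrays the ratio of 45 bp regions was 2.78 to 3.08 times that of long regions. The exact sign-flip permutation test over the 4 arrays gave a two-sided p = 0.125, the smallest that 4 arrays can give, with the long regions lower on 4 of 4 arrays. The same p was found for the IP signal, the input signal and both shares above background, and the Benjamini-Hochberg adjusted value over these 5 comparisons was also 0.125.

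**Figure D3:**
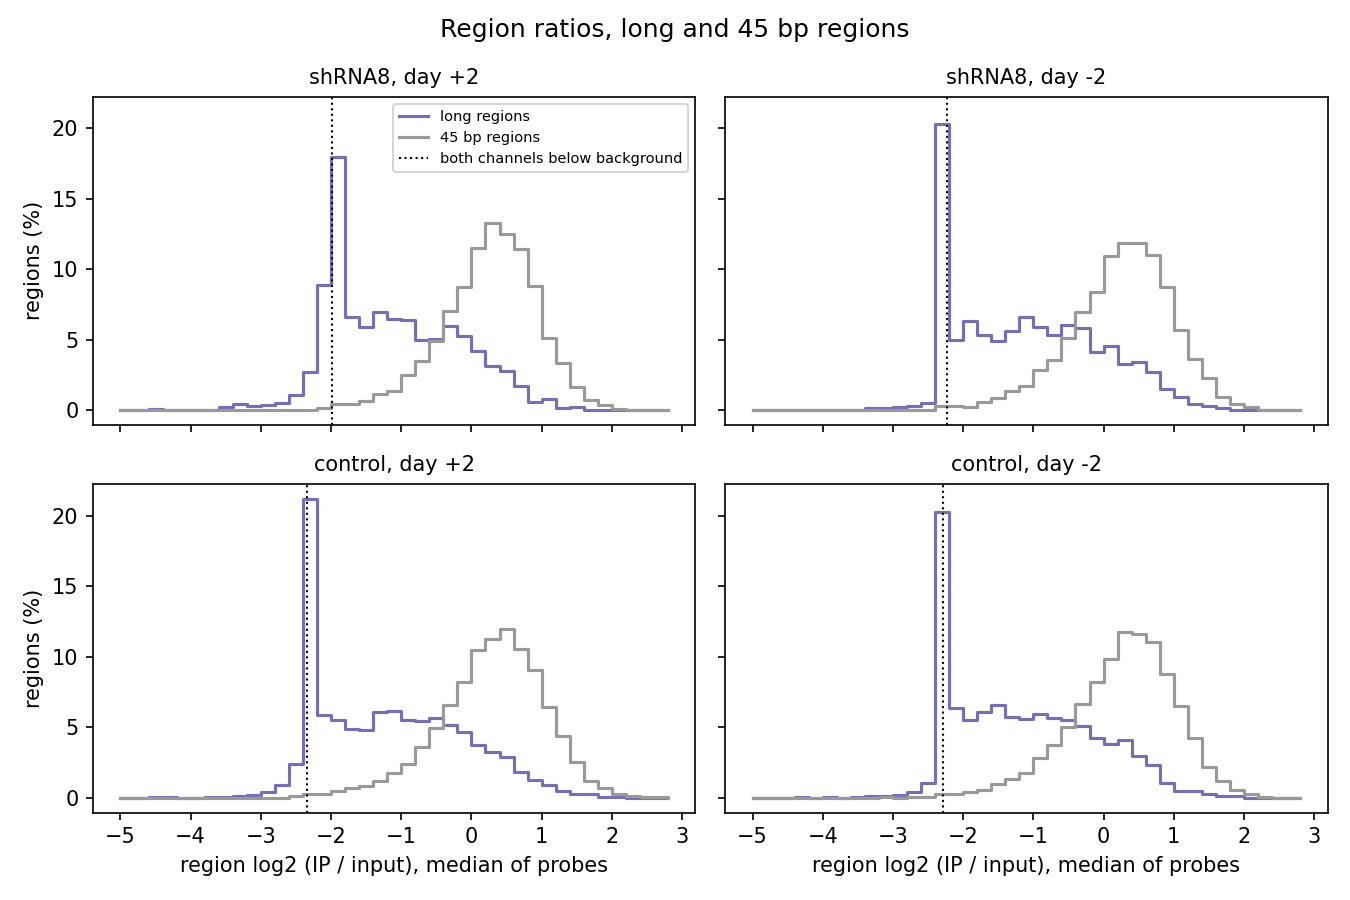
Distribution of the region ratio (horizontal axes, log2 of IP over input, median of the probes; vertical axes, percent of the regions of a class) in long and in 45 bp regions on each array. The dotted line marks the median ratio of spots with both channels below background, at which the long regions have a peak and the 45 bp regions do not.

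This difference was smaller where spots below background were left out. Leaving them out selects probes by the same signals that form the ratio. Where the difference arises was therefore not tested. In the histograms, long regions gather at the ratio that 2 substitute values give, and 28.1% of them had a median ratio in the range of such spots in shRNA8 cells at day +2, 18.6% in shRNA8 cells at day -2, 23.8% in control cells at day +2 and 23.7% in control cells at day -2. The shares of 45 bp regions were 0.601%, 0.241%, 0.381% and 0.371%. The range itself differed between arrays. In shRNA8 cells at day -2 it was the single value -2.24, and in shRNA8 cells at day +2 it ran from -2.25 to -1.78. In control cells it ran from -2.50 to -2.18 at day +2 and from -2.47 to -2.12 at day -2. The shares of different arrays are therefore not on the same scale. With substitute values left out, the difference in median ratio was -0.37 ± 0.05 (SD, n = 4 arrays). Among probes above background in both channels of all 4 arrays, which were 28.6% of the long-region probes and 63.7% of those in 45 bp regions, it was -0.11 ± 0.06 (SD, n = 4 arrays). Among those probes the signals were still lower in long regions, by a difference of -1.32 ± 0.02 for IP and -1.13 ± 0.05 for input (log2, SD, n = 4 arrays). Background-subtracted signals, where spots at or below 0 drop out, gave a ratio difference of -0.64 ± 0.11 (SD, n = 4 arrays). Signals without any background subtraction gave -1.86 ± 0.05 for the ratio and -0.30 ± 0.05 for the input (SD, n = 4 arrays). The median unsubtracted input in long regions was 36.5 to 42, against 2.86 to 4.40 after subtraction, so the former was mostly background.

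The plot of the ratio by region class shows both views. In all probes the median probe ratio of the 60 bp class was -1.91 in shRNA8 cells at day +2, -1.89 in shRNA8 cells at day -2, -2.06 in control cells at day +2 and -2.00 in control cells at day -2. Among probes above background in both channels of the array it was -0.21, -0.06, -0.07 and -0.04.

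**Figure D4:**
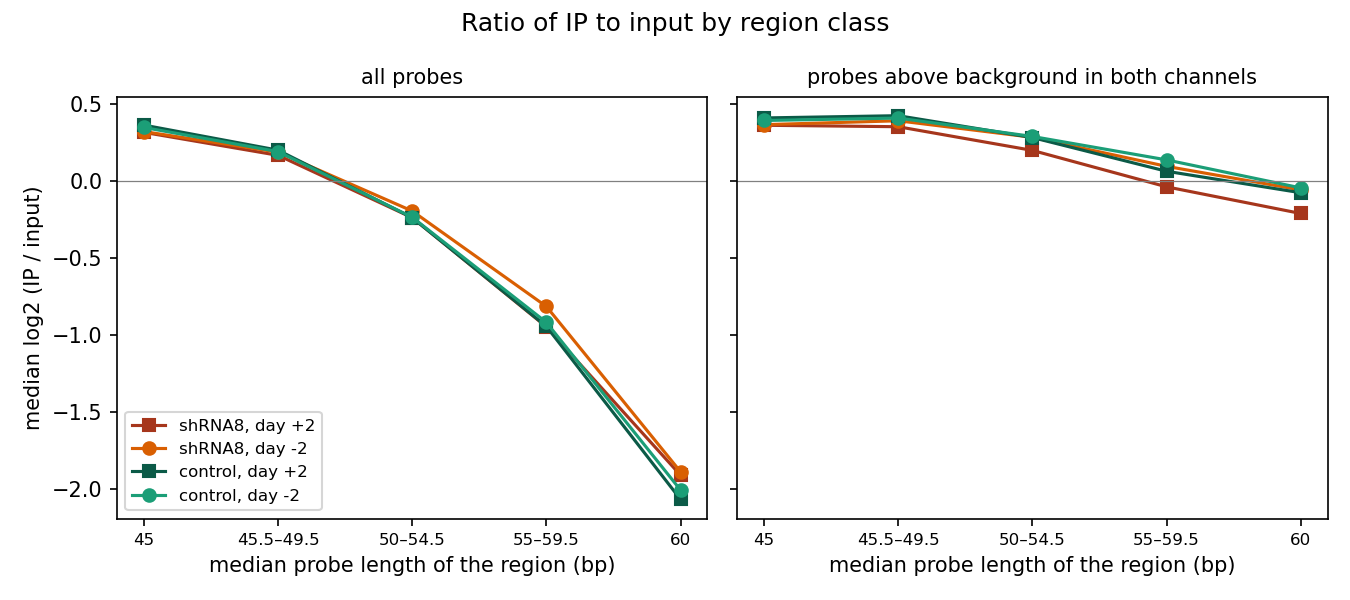
Median probe ratio (vertical axes, log2 of IP over input) by the median probe length of the region in bp (horizontal axes), with 1 line per array, for all probes and for probes above background in both channels of that array. The 60 bp class lies between -2.06 and -1.89 for all probes and between -0.21 and -0.04 for probes above background in both channels.

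Probe length and signal went together inside single regions as well. In 1206 long regions that held both 45 bp and 60 bp probes, the 60 bp probes had a ratio below that of their 45 bp neighbours by a median difference of -2.21 in shRNA8 cells at day +2, -2.30 in shRNA8 cells at day -2, -2.44 in control cells at day +2 and -2.47 in control cells at day -2. The 60 bp probes were the lower ones in 91.4% of these regions in shRNA8 cells at day +2 and in 90.3% in shRNA8 cells at day -2. Among probes above background in both channels of the array the difference was -1.16, -1.09, -1.21 and -1.25 in the same order of arrays, over 588 to 711 long regions, with the 60 bp probes lower in 71.1% to 76.5% of them. Over all spots, their log2 IP signal on the shRNA8 day +2 array was a median 4.79, against 9.08 for the 45 bp probes, and their log2 input signal was 6.47, against 8.46. Probes of different length in one region thus differed in the same direction as the classes of region did.

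Across long regions the arrays correlated more closely in IP than in input. Across regions, Pearson's r between pairs of arrays was 0.989 to 0.993 for the IP signal of long regions, against 0.994 to 0.996 for 45 bp regions. For the input signal it was 0.678 to 0.726 in long regions, against 0.900 to 0.918 in 45 bp regions. The SD of the log2 input difference between pairs of arrays was 0.47 to 0.56 in long regions and 0.48 to 0.52 in 45 bp regions. These r and SD values include substitute values. On probes with input above background on every array, the SD was larger in long regions in each comparison between lines or days. It was 0.34 to 0.39 over the tested long regions, against 0.22 to 0.25 in 45 bp regions. Tested long regions had a median of 3 such probes, against 5, and the part of probe number was not tested. With substitute values included, the input of long regions spanned a narrower range. In shRNA8 cells at day +2 its 10th and 90th percentiles were 5.93 and 7.66 (log2), against 6.86 and 9.87 in 45 bp regions. These are descriptions over regions of arrays that share probes and a slide. The regions are not independent of each other.

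Some long regions had ratios as high as those of 45 bp regions. The ratio was at or above the 45 bp median on every array in 96 long regions (3.95%), the IP signal in 12 (0.494%) and the input signal in 31 (1.28%). The highest ratio, averaged over arrays, belonged to the region at chr3:28790239-28791892, of 5 probes, with 1.41 in shRNA8 cells at day +2, 1.17 in shRNA8 cells at day -2, 2.00 in control cells at day +2 and 1.78 in control cells at day -2. Its IP signal was even, between 228 and 269, and 4 of its 5 probes were above background in the IP of every array. Its input signal was 99.9, 112, 80.6 and 72.7 in the order of arrays just given, with 3, 5, 4 and 1 probes above background. In control cells at day -2 the median substitute value of the input was 68.0. Next came chr1:176259399-176261112 with ratios up to 1.67, chr10:121516440-121518200 between 1.34 and 1.63, chr3:72868973-72870557 between 1.22 and 1.58, and chr15:41661204-41662766 between 1.09 and 1.77. In all 5 the IP signal was above 189 on every array, well over the long-region medians of 45.2 to 49.3. Some of their input probes were not above background. At chr10:121516440-121518200 the input of control cells at day +2 was 65.8, with 2 of 8 probes above background, where the median substitute value was 64.2. These high ratios thus rest in part on substitute values of the input.

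The long regions with the lowest ratios had an input above the long-region medians, and most had an IP below them. They were picked by that ratio, so a high input or a low IP is part of the choice. The lowest was chr2:174892772-174894557, with -4.54 in shRNA8 cells at day +2, -4.08 in shRNA8 cells at day -2, -4.27 in control cells at day +2 and -4.38 in control cells at day -2. Its input signal was 1350, 650, 879 and 486 on those arrays, with all 9 probes above background, while its IP signal was 36.9, 38.4, 30.0 and 25.2. The region at chr2:177812846-177814338, with 7 probes of median length 55 bp, had an input of 990, 706, 902 and 515 and an IP of 26.2, 30.9, 28.6 and 28.6. Its median ratio was the least even of those named here for their level, at -4.56 in shRNA8 cells at day +2, -1.52 in shRNA8 cells at day -2, -4.47 in control cells at day +2 and -3.37 in control cells at day -2. The mean over the same 7 probes was -3.61, -2.53, -3.45 and -2.69 in that order. By the mean, shRNA8 and control cells at day -2 were thus close to each other. The others were chr10:129759434-129760313, between -3.99 and -3.56, chr7:9865427-9867213, between -4.01 and -3.19, and chr7:9742859-9744531, between -3.58 and -3.21.

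Ratios this low were rare. In a count chosen after the values were seen, 10 long regions (0.412%) had a ratio below that of every spot with both channels below background on all 4 arrays. This held for 2 of the 45 bp regions (0.0200%) and for 28 of all 21019 regions (0.133%), so such ratios also occurred in the classes between. Of the 10 long ones, 4 lay on chromosome 7, which holds 369 of the 2430 long regions, and 2 on chromosome 2, which holds 344. Their input probes were above background at 90.4% in shRNA8 cells at day +2 and 89.0% in shRNA8 cells at day -2. A ratio this low calls for an input above its substitute value, so these shares largely follow from the choice of regions.

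Of the 16 long regions made wholly of 60 bp probes, the 3 with most probes are given. Among these, chr17:20421895-20423464 had 8 probes and ratios between -1.65 and -1.27, chr19:13706336-13707930 had 8 probes and ratios between -2.29 and -1.97, and chr17:40378724-40380225 had 7 probes and ratios between -2.31 and -1.98. In the last, 3 of 7 probes were above background in the IP of every array, and its IP signal was 14.8, 13.1, 12.7 and 14.0, in the order of arrays used above.

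Differences between lines and between days were taken on probes whose input exceeded background on each of the 4 arrays, after the ratios were centred and quantile normalized. A region was tested where at least 3 such probes remained, and it was called where its probes differed by a mean of at least 0.6 on the log2 scale, 1.52-fold, with at least 75% of them moving the same way. These are calls of size between 2 arrays. The filter kept 31.5% of the probes of long regions, against 64.3% in 45 bp regions, and left 953 of the 2430 long regions (39.2%) and 9482 of the 9979 regions of 45 bp. The tested long regions had shorter probes, with a median of 57.5 bp against 59 bp in those not tested, and a median of 3 kept probes, against 5 in 45 bp regions.

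The 45 bp regions were called in between 0.411% and 1.02% of cases. The long regions exceeded this range in every count other than the higher calls between the days in shRNA8 cells. There the 45 bp regions had 0.738%. In shRNA8 cells, day +2 against day -2, 8 of the 953 long regions were higher (0.839%, with 0.947% of all 17208 tested regions) and 112 were lower (11.8%, with 2.14% of all tested). In control cells, day +2 against day -2, 17 were higher (1.78%, with 0.976% of all) and 29 were lower (3.04%, with 1.06% of all). For shRNA8 cells against control cells at day +2, 21 were higher (2.20%, with 1.4% of all) and 82 were lower (8.60%, with 1.98% of all). At day -2, 41 were higher (4.30%, with 1.15% of all) and 29 were lower (3.04%, with 1.28% of all). Long regions were 5.54% of the tested regions, and they made up 30.4% of the 368 lower calls between the days in shRNA8 cells and 24.0% of the 341 lower calls between the lines at day +2. Both of these comparisons include the shRNA8 day +2 array, so they share its values.

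**Figure D5:**
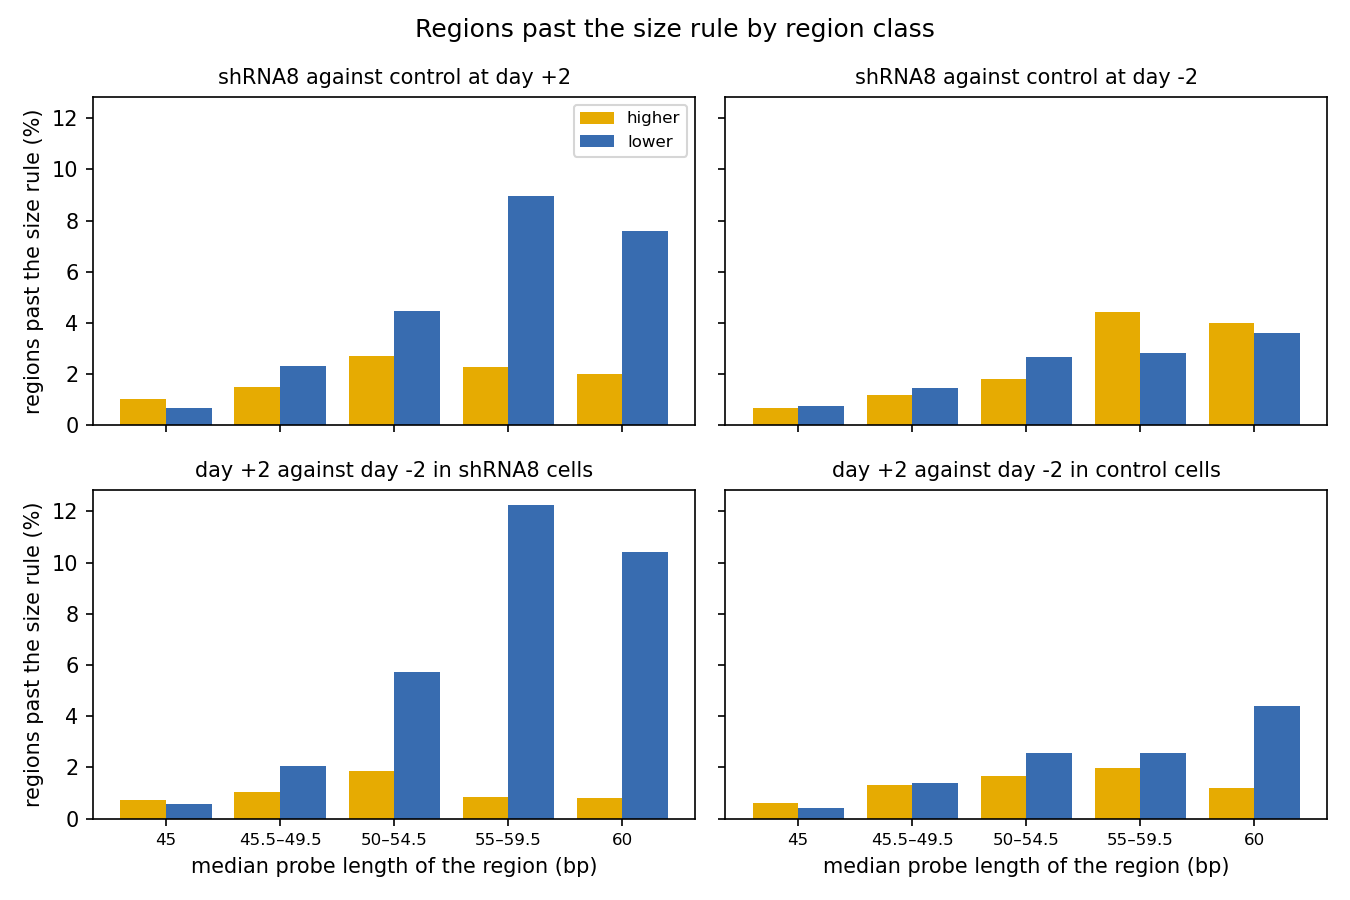
Share of the tested regions past the size rule (vertical axes, percent), higher and lower, by the median probe length of the region in bp (horizontal axes), in each of the 4 comparisons. Lower calls reach 12.2% in the class from 55 bp to under 60 bp between the days in shRNA8 cells and 8.96% between the lines at day +2.

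Without the filter on the input, all 2430 long regions could be tested. Between the days in shRNA8 cells 8 of them were then higher (0.329%, with 0.623% of all 21017 tested) and 119 lower (4.90%, with 1.77% of all). In control cells 16 were higher (0.658%, with 0.481% of all) and 28 lower (1.15%, with 0.623% of all). For the lines at day +2, 25 were higher (1.03%, with 0.737% of all) and 70 lower (2.88%, with 1.25% of all), and at day -2, 38 were higher (1.56%, with 0.68% of all) and 17 lower (0.700%, with 0.657% of all).

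In each of the called long regions, the input differed by more than the IP. The 112 lower regions between the days in shRNA8 cells had a median input difference of 0.80 and a median IP difference of -0.03, and the 82 lower ones for the lines at day +2 had 0.66 and -0.02. Over all tested long regions the medians were smaller. Between the days in shRNA8 cells, the median difference of the tested long regions was -0.12 for the ratio, -0.01 for IP and 0.09 for input, and in 45 bp regions it was 0.03, 0.01 and -0.03. For the lines at day +2 it was -0.11, 0.00 and 0.04 in long regions, and 0.03, 0.00 and -0.07 in 45 bp regions. Between the days in control cells the long regions had -0.04, -0.05 and 0.02, and for the lines at day -2 they had 0.01, -0.05 and -0.06. Over the tested long regions the difference in IP had an SD of 0.07 to 0.10 in the 4 comparisons and the difference in input an SD of 0.34 to 0.39. By the IP signal alone, 0 long regions were called in either direction in any of the 4 comparisons, and so were 0 (0%) of all 17208 tested regions. With signals from which no background had been subtracted, 3 long regions were lower between the days in shRNA8 cells (0.315%, with 0.0349% of all) and 2 for the lines at day +2 (0.210%, with 0.0581% of all). The other 6 counts of long regions were then 0, with 0.0232% of all tested regions higher between the days in shRNA8 cells, 0% higher and 0.0116% lower between the days in control cells, 0.0232% higher for the lines at day +2, and 0.0174% higher and 0.0174% lower at day -2.

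The long regions also scattered more between probes. The SD of the difference over the kept probes of a region had a median of 0.49 to 0.53 in long regions, against 0.38 to 0.44 in 45 bp regions. With at least 5 kept probes, 176 long regions could be tested, out of 9295 in all. Between the days in shRNA8 cells 2 of them were higher (1.14%, with 0.398% of all) and 46 lower (26.1%, with 1.93% of all), and in control cells 1 was higher (0.568%, with 0.441% of all) and 8 lower (4.55%, with 0.635% of all). For the lines at day +2, 0 of the 176 were higher (0.559% of all) and 26 lower (14.8%, with 1.34% of all), and at day -2 2 were higher (1.14%, with 0.441% of all) and 5 lower (2.84%, with 0.613% of all). The lower calls between the days in shRNA8 cells thus made up a larger share of these better-covered long regions than of all tested ones. The part of scatter and probe number in the calls was not tested.

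On chromosome 7, 41 of 150 tested long regions were lower between the days in shRNA8 cells (27.3%), against 30 of the 1416 other regions tested there (2.12%). Without chromosome 7, 71 of 803 long regions were lower (8.84%), against 226 of 14839 others (1.52%). Chromosome 7 was set apart after the values were seen, so its high share follows in part from that choice. Many of its lower calls lay in the windows at 6 to 12 Mb and 20 to 22 Mb given below. The rest of the chromosome was not counted separately. The next 5 windows of 2 Mb were picked for holding the most lower long regions in this comparison. Their high counts follow from that choice. At 8 to 10 Mb of chromosome 7, 13 of 14 tested long regions were lower, with a median difference of 0.93 in input and -0.04 in IP, and in control cells 3 of the same 14 were lower. No region that was not long could be tested in this window. At 6 to 8 Mb 5 of 6 long regions were lower, against 3 of 27 others. At 10 to 12 Mb the counts were 6 of 11 against 1 of 3, and at 20 to 22 Mb 5 of 10 against 0 of 25. In control cells, 3 of the 6 long regions and 2 of the 27 others were lower at 6 to 8 Mb. At 10 to 12 Mb and at 20 to 22 Mb, 0 long regions and 0 others were lower in control cells. At 176 to 178 Mb of chromosome 2, 3 of 3 long regions and 13 of 18 others were lower in shRNA8 cells, and 2 of 3 long regions and 6 of 18 others in control cells, so that the lower calls there were not confined to long regions. In the 86 to 88 Mb window of chromosome 2, which holds most long regions, 20 were tested, and 0 were lower and 1 higher between the days in shRNA8 cells.

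The largest lower difference between the days in shRNA8 cells was at chr7:10638028-10639653, with 6 kept probes. The mean ratio of these probes was -2.96 in shRNA8 cells at day +2 and -1.36 at day -2, against -2.13 in control cells at day +2 and -1.32 at day -2. The normalized difference in shRNA8 cells was -1.66, with 6 of 6 probes lower, an input difference of 1.40 and an IP difference of -0.16. The region at chr3:93858308-93860005 followed with -1.64 on 3 kept probes, whose ratio was -0.34 in shRNA8 cells at day +2 and 1.29 at day -2, and chr7:21315467-21316946 with -1.45 on 3, whose ratio was -1.39 in shRNA8 cells at day +2 and 0.05 at day -2. Of the higher regions, chr13:56996543-56998122 had a difference of 0.87 on 3 kept probes, chr2:86911881-86913573 one of 0.84 on 3 and chr13:40382892-40384534 one of 0.82 on 5.

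Between the days, 12 long regions were lower in both lines, 0 were higher in both and 0 moved in opposite ways. They made up 12 of the 112 lower calls in shRNA8 cells (10.7%) and 12 of the 29 in control cells (41.4%), against 12.5% and 25.3% over all tested regions, of which 46 were lower in both lines, 4 higher in both and 3 in opposite ways. Of the 12, 6 lay on chromosome 7. The most marked was chr7:8638626-8640319, with a difference of -1.23 in shRNA8 cells and -1.10 in control cells, on 6 of 6 kept probes in each. The mean ratio of its kept probes was -2.87 in shRNA8 cells at day +2 and -1.70 at day -2, and -2.57 in control cells at day +2 and -1.43 at day -2. Input differed by 1.13 in shRNA8 cells and 1.14 in control cells, and IP by 0.00 and -0.03. At chr2:177812846-177814338, one of the regions with the lowest ratios, the difference was -1.15 in shRNA8 cells and -0.70 in control cells, on 7 of 7 probes in each.

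Between the lines, 6 long regions were lower and 1 was higher in shRNA8 cells at both days. The 6 were 7.32% of the lower calls at day +2 and 20.7% of those at day -2, against 9.68% and 14.9% over all tested regions, of which 33 were lower and 8 higher at both days. Of the 6, 4 lay within 2 Mb of each other on chromosome 4 and 2 on chromosome 7. At chr4:145682677-145684282, the mean ratio of the 6 kept probes was -3.13 in shRNA8 cells at day +2 and -1.84 in control cells at day +2, and it was -2.45 in shRNA8 cells at day -2 and -1.72 in control cells at day -2. The differences were -1.35 at day +2 and -0.73 at day -2, with 6 of 6 probes lower at both. At chr4:147016118-147017560 they were -1.25 and -0.74, at chr4:146926098-146927789 -1.25 and -0.74, and at chr4:145205822-145207392 -1.07 and -0.96. In these 4 regions input differed by 0.96 to 1.22 at day +2 and IP by -0.05 to 0.22. The higher region was chr11:99733490-99734682, with differences of 0.81 at day +2 and 1.17 at day -2 on 3 of 3 kept probes.

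At day -2, where higher calls outnumbered lower ones, the largest difference was at chr1:167864580-167866362, with 1.61 on 3 kept probes and an SD of 2.36 over those probes. The mean ratio was 0.16 in shRNA8 cells and -1.36 in control cells. The largest lower difference was at chr2:86116143-86117888, with -1.28 on 5 kept probes, whose ratio was -0.03 in shRNA8 cells and 1.33 in control cells. At day +2 the largest higher difference was at chr2:86990318-86991978, with 1.24 on 3 kept probes, and its input differed by -1.31 and its IP by 0.05. The other large differences at day +2 were 0.94 at chr2:86516994-86518097, 0.94 at chr19:41622857-41624568 and -1.26 at chr7:115666984-115668644. At day -2 they were 1.23 at chr6:24806985-24808148, -1.25 at chr10:128570325-128571844 and -1.07 at chr19:12964567-12966357. Each rested on 3 kept probes, other than chr19:41622857-41624568 with 4.

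In control cells, the largest higher differences between the days were 1.05 at chr3:142054315-142055798, where 3 of 4 kept probes were higher, 1.03 at chr8:67652937-67654563 and 1.02 at chr7:7122903-7124335. At chr8:67652937-67654563 the mean ratio of the 3 kept probes was 1.26 in control cells at day +2 and 0.20 at day -2, with an input difference of -0.97 and an IP difference of 0.06. The largest lower differences after that at chr7:8638626-8640319 were -0.98 at chr11:30119283-30120940 and -0.89 at chr2:151820962-151822267, each on 3 kept probes.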

How the data were processed

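DNA methylation was profiled in 4 two-channel arrays, 1 per group. Per the file headers, the authors' deposited signal intensity values came from Feature Extraction 11.0.1.1 on build mm9, with background subtraction and dye normalization. The submitters' processing notes also name limma, with no role given. From these intensities, log2 of IP over input was taken per probe and its median per region. The regions, lists and rules were chosen with earlier results of these data known. The classes were compared on the 4 arrays with an exact sign-flip permutation test (numpy 2.4.6, pandas 2.3.3, scipy 1.17.1). For differences between lines and days, ratios were centred on the array median and quantile normalized over all 4 arrays. Regions named in the text are the 5 highest and 5 lowest in ratio among those with at least 5 probes, the 3 with most probes among those wholly of 60 bp probes, the 3 largest calls in each direction and comparison, and those called at both days or in both lines. Windows named are the 3 of 2 Mb with most long regions and the 5 with most lower long regions between the days in shRNA8 cells. The steps were tested on simulated data. No gene annotation or sequence of build mm9 was used here.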

Additional observations from a re-analysis of the deposited data

Results flagged for a closer look

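At chr3:93858308-93860005, the 2 differences between the lines were of opposite sign. The difference of shRNA8 cells against control cells was -1.10 at day +2 and 1.14 at day -2, on 3 of 3 kept probes at both. The mean ratio of those probes was -0.34 in shRNA8 cells at day +2 and 0.82 in control cells at day +2, and 1.29 in shRNA8 cells at day -2 and 0.20 in control cells at day -2. Input differed by 1.05 at day +2 and -1.08 at day -2, and IP by 0.01 and 0.07. The difference between the days was not tested, since each group is 1 array. The region was 1 of 953 tested long regions, and over all 17208 tested regions 7 had opposite differences.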

How the results depend on the processing

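The differences between long and 45 bp regions kept their sign under every alternative run, with the ratio difference between -1.97 (long from 58 bp) and -0.11 (probes above background in both channels of all 4 arrays). Counts of long regions called between lines and days moved with the processing. They are given here as higher and then lower, for the lines at day +2, the lines at day -2, the days in shRNA8 cells and the days in control cells. Without background subtraction they were 0 and 2, 0 and 0, 0 and 3, and 0 and 0. By the IP channel alone all were 0. At a size of 1 they were 1 and 16 of 953 (0.105% and 1.68%, with 0.122% and 0.221% of all tested regions), 6 and 3 (0.630% and 0.315%, with 0.128% and 0.110%), 0 and 37 (0% and 3.88%, with 0.0872% and 0.453%), and 4 and 1 (0.420% and 0.105%, with 0.0988% and 0.0581%). With at least 5 kept probes they were 0 and 26, 2 and 5, 2 and 46, and 1 and 8, of 176 tested. With no filter on the input, the lower count for the lines at day -2 was 17. With chromosome 7 left out, an alternative chosen after seeing the data, the lower count between the days in shRNA8 cells was 71. The other counts under these last settings, and all counts under median centring alone and with all probes the same way, stayed within 1.5 times.

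Of the 24 largest differences, 24 passed the rule under median centring alone, 10 with no filter on the input and 2 without background subtraction, where chr2:151820962-151822267 reversed to 0.0249. By IP alone 10 reversed. For the lines at day +2 these were chr2:86516994-86518097 (-0.0777) and chr4:145682677-145684282 (0.0199), and at day -2 chr6:24806985-24808148 (-0.0609), chr2:86116143-86117888 (0.0402) and chr10:128570325-128571844 (0.0186). Between the days in shRNA8 cells they were chr13:56996543-56998122 (-0.0230) and chr13:40382892-40384534 (-0.0812), and in control cells chr3:142054315-142055798 (-0.123), chr7:7122903-7124335 (-0.268) and chr2:151820962-151822267 (0.0708). The cause was not tested, other than that the IP channel alone leaves out the input. No paired analysis was possible because each group is 1 array, and leaving out a replicate was not possible for the same reason. The median input signal after background subtraction was 2.86 to 4.40 in long regions, against 9.75 to 14.4 in 45 bp regions.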
